A study of Mus musculus with 6 samples.

Results

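The 32 genes described here mark the blood vessels and coverings of the brain. They comprise 16 genes of blood-brain barrier endothelium, 7 genes of mural cells (pericytes and smooth muscle) and 9 genes of leptomeningeal fibroblasts. They were taken by symbol from a named list, and all 32 were among the 23067 genes of the deposited table. Their messenger RNA was read by bulk sequencing of dorsal striatum from mouse pups, taken at postnatal day 21. The knock-in group held 3 mouse samples homozygous for the G2019S change in Lrrk2, labelled Lrrk2G2019S/G2019S. The wild-type group held 3 samples labelled Lrrk2WT/WT. The labels name no drug or other treatment, and all samples are titled male. Lrrk2 encodes a large kinase, and the G2019S change is a cause of familial Parkinson's disease. It is a point change carried by the whole animal, so vessels, meninges and neurons all bear it. The strain is not given in the sources used here.

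Brain endothelial cells are sealed to each other by tight junctions, and they let nutrients into the brain through dedicated transporters while pumping many foreign molecules back into blood. Pericytes wrap the capillaries and are kept there by platelet-derived growth factor from the endothelium, whereas smooth muscle cells ring the arterioles and set their diameter. Fibroblasts of the leptomeninges lay down collagen around the brain and along its larger vessels. Dorsal striatum lies deep in the brain, away from most of the leptomeninges.

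Levels are FPKM, read numbers scaled to the length of the transcript and to the size of the library, 1 value per gene and library. Over all genes, Pearson correlations between the 6 libraries were 0.991 to 0.994, within and between genotypes, on the log2(FPKM + 1) scale. Some libraries nonetheless stood apart. In knock-in replicate 3, mitochondrially encoded genes took 23.2% of all FPKM, against 18.0% and 20.5% in the other knock-in libraries and 18.6% to 19.4% in wild type. In wild type replicate 2, Ttr, the transthyretin of the choroid plexus, stood at 374 FPKM, against 2.12 to 13.5 FPKM in knock-in and 11.8 and 16.2 FPKM in the other wild-type libraries. Slc17a7, which loads glutamate into vesicles in neurons of cortex, reached 29.9 FPKM in knock-in replicate 1, 25.2 FPKM in replicate 2 and 3.41 FPKM in replicate 3, against 2.73 to 10.95 FPKM in wild type. Xist, the RNA that coats the silenced X chromosome of female cells, was at 27.2 to 39.3 FPKM in knock-in and 31.4 to 33.0 FPKM in wild type, which goes against the titled sex in all 6 libraries. Of the 32 genes, Itm2a is on the X chromosome. Lrrk2 itself was at 11.9 ± 0.579 FPKM in knock-in and 11.3 ± 0.625 FPKM in wild type (SD, n = 3 each), and a point change does not alter its level in a way that checks the labels.

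None of the genes of vessels or meninges passed the test for a difference between genotypes. Genes were compared on log2(FPKM + 1) with limma, two-sided, with Benjamini-Hochberg adjustment over the 14156 genes whose mean reached 1 FPKM, and called at an adjusted p under 0.05. Of the 32 genes 28 reached that mean, and the other 4, Dcn, Col1a1, Col3a1 and Lum, were left out of this test. The number called was 0 of 28, beside 3 of all tested genes, or 0.0212%. At an unadjusted p under 0.05 it was also 0 of 28, where 4.27% of all tested genes passed. The adjusted p was 0.997 in limma for every tested member. Of the 28 genes 18 were lower and 10 higher in knock-in, with a median log2 difference of -0.05, while 56.4% of all tested genes were lower, with a median of -0.01. The classes were uneven. Of 16 endothelial genes 12 were lower (median -0.05), of 7 mural genes 2 were lower (median 0.02), and of the 5 tested meningeal genes 4 were lower (median -0.13). Without knock-in replicate 3 the meningeal median turned to 0.04 and the mural median was 0.09. The labels do not state whether each sample was a different animal, so p-values here reflect only how far these samples spread, and that spread may be technical.

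**Figure D1:**
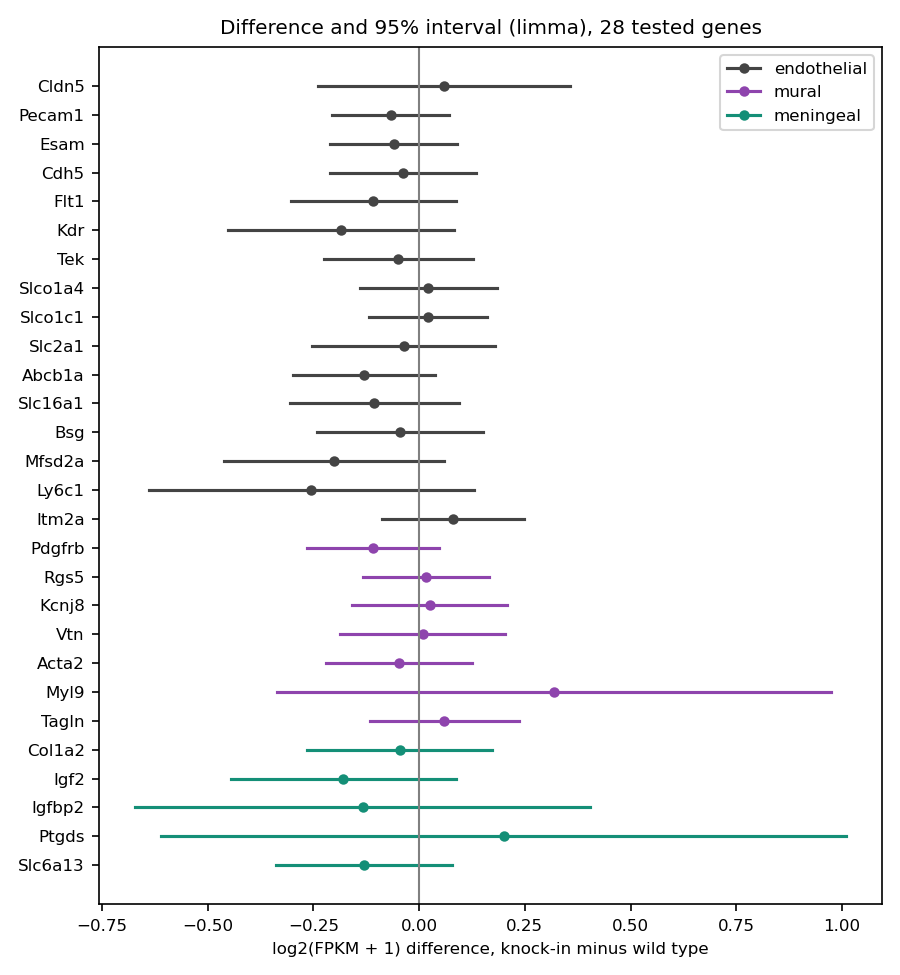
Difference between genotypes for the 28 tested genes, from the top endothelial, mural and meningeal. Points are log2(FPKM + 1) differences, knock-in minus wild type, and bars are 95% intervals from limma with 3 libraries per genotype. All 28 bars cross 0, and those of Myl9, Igfbp2 and Ptgds are the longest.

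The precision differed between genes. Folds with an interval are folds of FPKM + 1 here and below, which understates changes and widths for low genes. The 95% interval of the fold lay within 0.833 to 1.2 for 14 of the 28 genes and within 0.667 to 1.5 for 24. The 4 genes with wider intervals were Myl9, Igfbp2, Ptgds and Ly6c1, for which the interval reached a fold below 0.667 or above 1.5. The median coefficient of variation over the 6 libraries was 7.99% for the 28 genes and 8.45% for all tested genes. Bulk levels cannot tell fewer cells of a type from less RNA per cell.

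**Figure D2:**
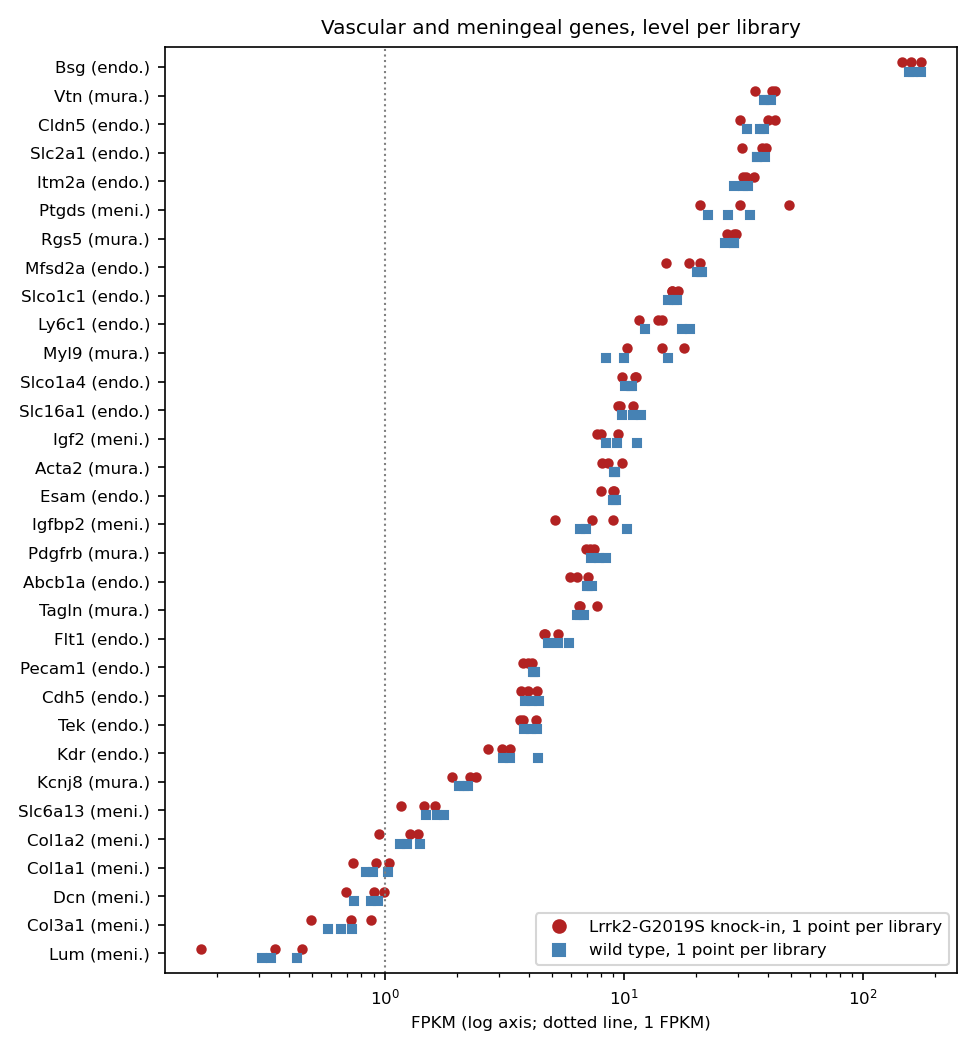
Level of each of the 32 genes in each library, in FPKM on a log axis, ordered by the mean over the 6 libraries. Circles are knock-in and squares wild-type libraries. Bsg is highest, at 146 to 174 FPKM in knock-in, and the matrix genes Col1a1, Dcn, Col3a1 and Lum lie around or below the dotted line at 1 FPKM.

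The junction and adhesion genes of endothelium come first. Cldn5, which encodes the main claudin of the barrier's tight junctions, lies on chromosome 16 at 18776847 to 18778262 (GRCm38) and is transcribed from a single annotated transcript. Its level was 39.9, 42.8 and 30.7 FPKM in the 3 knock-in libraries, against 36.9, 38.5 and 32.6 FPKM in wild type. The knock-in libraries held both the highest and the lowest level, and the mean was 37.8 ± 6.33 FPKM in knock-in and 36.0 ± 3.02 FPKM in wild type (SD, n = 3 each). The log2 difference of 0.06 (SE 0.13) was 0.20 when knock-in replicate 3 was left out, and -0.04 when replicate 2 was, so its direction rested on single libraries.

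The bases upstream of the Cldn5 start are shown beside those of the drug and hormone transporter gene Slco1a4, since the first gene was lowest in knock-in replicate 3 and the second was not. They run up to the start site, are from RefSeq on GRCm38.p6, and are written in the direction of transcription. Cldn5 is at chr16:18776597-18776846 on the plus strand and Slco1a4 at chr6:141856221-141856470 on the minus strand. Capitals mark the CCAAT box in its reverse form ATTGG, and either form was searched.
Cldn5: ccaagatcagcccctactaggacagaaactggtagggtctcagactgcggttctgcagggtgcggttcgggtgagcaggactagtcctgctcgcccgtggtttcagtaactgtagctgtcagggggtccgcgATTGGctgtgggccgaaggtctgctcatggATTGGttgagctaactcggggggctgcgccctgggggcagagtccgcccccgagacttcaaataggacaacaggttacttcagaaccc
Slco1a4: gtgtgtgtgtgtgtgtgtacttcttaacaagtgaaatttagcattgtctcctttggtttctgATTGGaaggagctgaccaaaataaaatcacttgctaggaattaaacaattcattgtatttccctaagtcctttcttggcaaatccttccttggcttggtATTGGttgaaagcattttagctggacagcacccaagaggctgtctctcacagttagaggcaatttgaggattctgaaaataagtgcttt
Both windows hold 2 matches, starting 118 and 88 bases before the start in Cldn5 and 188 and 89 bases before it in Slco1a4. A CCAAT match occurs in 33.8% of the 32851 promoter windows of RefSeq. The 23 members that had a window had 30 windows, of which 9 held a match, in 9 members. The match describes the letters of these windows only.

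Pecam1, the CD31 adhesion molecule of endothelial contacts, was at 4.14, 3.98 and 3.81 FPKM in knock-in, against 4.22, 4.26 and 4.16 FPKM in wild type. It was the 1 gene of 32 whose genotypes did not overlap, all knock-in libraries lying lower, beside 9.51% of all tested genes that did not overlap and 6.58% that did so with knock-in lower. The difference was small, at -0.07 (SE 0.06) on the log2 scale, with a 95% interval of the fold of 0.867 to 1.05, and it was -0.043 without knock-in replicate 3. The 8 annotated transcripts of Pecam1 span 106654217 to 106750628 of chromosome 11. Esam, another adhesion molecule of endothelial tight junctions, was at 9.12, 9.03 and 8.05 FPKM in knock-in and at 9.03, 9.09 and 9.29 FPKM in wild type. Cdh5, the cadherin of endothelial adherens junctions, was at 4.32, 3.99 and 3.71 FPKM in knock-in and at 3.86, 4.40 and 4.15 FPKM in wild type. All 4 junction genes were lowest of the 6 libraries in knock-in replicate 3.

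The receptors that endothelium uses to sense vascular growth factors followed. Kdr encodes VEGFR2, the receptor that carries most VEGF-A signalling, and lies on chromosome 5 at 75932827 to 75978458. Kdr stood at 3.08, 3.35 and 2.70 FPKM in knock-in and at 3.34, 4.38 and 3.13 FPKM in wild type, a log2 difference of -0.18 (SE 0.11). Wild type replicate 2, the library rich in Ttr, held the highest level, and without it the difference was -0.07. The part of choroid plexus tissue in this value was not tested. Flt1, which encodes VEGFR1, a high-affinity VEGF-A receptor of weak kinase activity, was at 5.33, 4.63 and 4.70 FPKM in knock-in and at 4.83, 5.90 and 5.33 FPKM in wild type, again highest in wild type replicate 2. Tek, the TIE2 receptor for angiopoietins, was at 4.30, 3.69 and 3.80 FPKM in knock-in and at 3.82, 4.11 and 4.36 FPKM in wild type. Its log2 difference of -0.05 (SE 0.08) ran from -0.10 without knock-in replicate 1 to -0.013 without wild type replicate 3. All 3 receptors were lower on average in knock-in, with overlapping libraries.

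No ligand or partner of these receptors passed the test either. Of 17 listed genes of the VEGF, angiopoietin, Notch and endoglin pathways, 11 were tested, 8 were lower and 3 higher in knock-in, and 0 were called. Vegfa, the ligand of both VEGF receptors, was at 13.8, 16.2 and 12.9 FPKM in knock-in and at 14.3, 16.0 and 13.9 FPKM in wild type. Notch1, a receptor that restrains vessel sprouting, had the smallest p of the list, with 3.03, 2.73 and 2.47 FPKM in knock-in and 2.97, 3.60 and 3.39 FPKM in wild type (log2 difference -0.21, SE 0.09, unadjusted p = 0.0447 and adjusted p = 0.997 in limma). Acvrl1, the ALK1 receptor of endothelium, was at 12.4 FPKM in knock-in replicate 1, against 6.73 and 6.85 FPKM in the other knock-in libraries and 6.29 to 6.78 FPKM in wild type.

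Endothelial transport genes covered a wide range of levels. Bsg encodes basigin, a chaperone of lactate transporters that is also made by neurons and glia, and it was the most abundant of the 32 genes, at 158, 174 and 146 FPKM in knock-in and 174, 162 and 156 FPKM in wild type. Slc2a1, the GLUT1 glucose transporter of the barrier, was at 39.3, 37.9 and 31.3 FPKM in knock-in and at 36.1, 35.9 and 38.9 FPKM in wild type. Its knock-in libraries spanned the wild-type range, with replicate 3 below it and replicate 1 above it. Slc16a1, the MCT1 transporter of lactate and ketones, was at 9.44, 10.97 and 9.63 FPKM in knock-in and at 11.8, 9.82 and 10.9 FPKM in wild type. Oligodendrocytes make MCT1 as well.

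Mfsd2a, which imports the lipid form of docosahexaenoic acid and limits transcytosis through the barrier, varied more. Mfsd2a stood at 18.7, 20.9 and 14.9 FPKM in knock-in and at 21.1, 20.3 and 21.2 FPKM in wild type, a mean of 18.2 ± 3.00 FPKM against 20.9 ± 0.494 FPKM (SD, n = 3 each). The wild-type libraries were close together, knock-in replicate 2 lay among them, and replicates 1 and 3 lay below. The log2 difference was -0.20 (SE 0.11) and -0.07 without knock-in replicate 3. Leaving out replicate 2 of the knock-in group gave -0.30, with an unadjusted p of 0.0176 and an adjusted p of 0.795 in limma. Mfsd2a lies on chromosome 4 at 122946850 to 122961188. In the same library, knock-in replicate 3, genes of myelinating oligodendrocytes stood at a median of -0.45 from the wild-type mean and astrocyte genes at -0.15. Their part in the Mfsd2a level was not tested.

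Abcb1a, the P-glycoprotein efflux pump, was at 7.11, 5.94 and 6.35 FPKM in knock-in and at 7.34, 7.09 and 7.03 FPKM in wild type. Knock-in replicates 2 and 3 lay below wild type, with a log2 difference of -0.13 (SE 0.07) that was -0.078 without knock-in replicate 2. Its near copy Abcb1b was at 0.544 to 0.730 FPKM in knock-in and 0.606 to 0.654 FPKM in wild type, and reads of both genes could be split either way. The organic anion carriers were the steadiest of the group. Slco1c1, which brings thyroxine into the brain and is also made by astrocytes, was at 16.0, 16.9 and 15.9 FPKM in knock-in and at 15.3, 16.7 and 16.1 FPKM in wild type. Slco1a4 was at 11.2, 9.78 and 11.2 FPKM in knock-in and at 10.1, 10.7 and 10.8 FPKM in wild type. Both had a log2 difference of 0.02, with a fold between 0.921 and 1.12 for Slco1c1 and between 0.907 and 1.14 for Slco1a4 (95% intervals).

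Among barrier genes outside the 32, a list of 19 further junction genes and transporters had 18 tested genes, of which 14 were lower, 4 higher and 0 called. Slc7a5, the LAT1 carrier of large amino acids, was at 22.7, 19.7 and 16.9 FPKM in knock-in and at 19.8, 18.7 and 21.9 FPKM in wild type. The Norrin and Wnt pathway, which induces the barrier, was tested in 12 of 13 genes, with 6 lower, 6 higher and 0 called. Apcdd1, a Wnt inhibitor and Wnt target of barrier endothelium, was at 13.1, 13.2 and 10.4 FPKM in knock-in and at 14.3, 14.3 and 14.9 FPKM in wild type (log2 difference -0.23, SE 0.09, unadjusted p = 0.0357 and adjusted p = 0.997 in limma). Tspan12, a co-receptor for Norrin, lay the other way, at 5.09, 5.15 and 5.62 FPKM in knock-in and 4.55, 5.00 and 4.80 FPKM in wild type. The genotypes did not overlap for either gene, in opposite directions. These were the 2 of the 13 listed genes without overlap, beside 9.51% of all tested genes, and both were among the smallest p of the list.

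The last endothelial genes are surface markers. Ly6c1 encodes a GPI-anchored protein of brain endothelium and lies on chromosome 15 at 75044018 to 75048830. Ly6c1 stood at 13.9, 14.4 and 11.6 FPKM in knock-in and at 18.9, 12.3 and 17.5 FPKM in wild type. The 3 knock-in libraries lay below wild type replicates 1 and 3, but wild type replicate 2 lay among them. The log2 difference of -0.25 (SE 0.16) was the lowest of the 28. It was -0.14 without wild type replicate 1, and without wild type replicate 2 it was -0.43, with an unadjusted p of 0.00519 and an adjusted p of 1.00 in limma. Reads may be shared with the near copy Ly6c2, which was at 1.51 to 1.72 FPKM in knock-in and 1.65 to 1.71 FPKM in wild type. Itm2a, a membrane protein of endothelium and T cells, was at 31.3, 35.0 and 32.3 FPKM in knock-in and at 31.3, 29.0 and 32.9 FPKM in wild type. The genotypes overlapped, and the log2 difference of 0.08 (SE 0.07) ran from 0.032 without wild type replicate 2 to 0.12 without wild type replicate 3. Of 19 further endothelial genes 18 were tested, with 11 lower, 7 higher and 0 called.

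**Figure D3:**
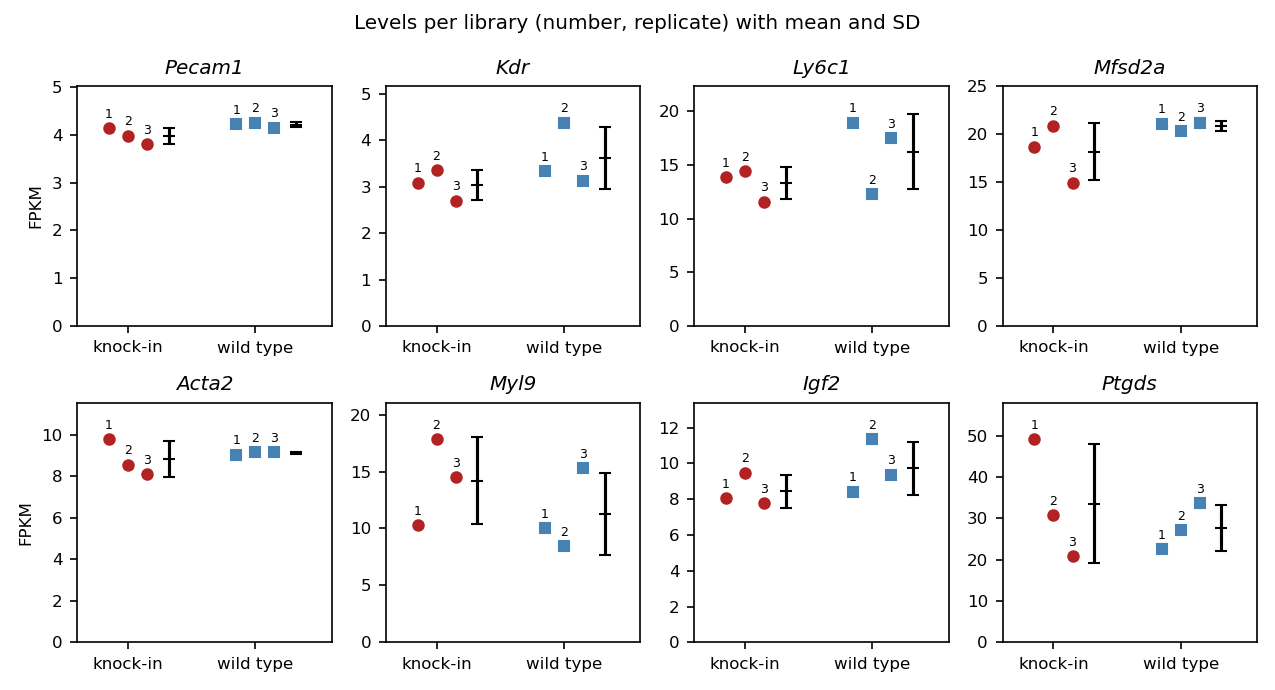
FPKM per library for 8 genes, with replicate numbers above the points and the mean and SD to their right (n = 3). Knock-in libraries are circles and wild-type libraries squares, and axes start at 0. Pecam1 does not overlap between genotypes, Kdr and Igf2 are highest in wild type replicate 2, and Myl9 and Ptgds spread more than 2-fold over the libraries.

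Pericyte genes were close to level. Pdgfrb, the receptor through which platelet-derived growth factor holds pericytes on capillaries, was at 7.47, 7.23 and 6.92 FPKM in knock-in and at 7.31, 8.39 and 7.88 FPKM in wild type. Knock-in replicates 2 and 3 lay below wild type, with a log2 difference of -0.11 (SE 0.07) that was -0.067 without wild type replicate 2. Rgs5, a G-protein regulator enriched in pericytes, was at 26.9, 28.8 and 29.3 FPKM in knock-in and at 26.5, 28.7 and 28.9 FPKM in wild type. Kcnj8, the Kir6.1 subunit of the pericyte ATP-sensitive potassium channel, was at 2.28, 2.42 and 1.92 FPKM in knock-in and at 2.23, 2.16 and 2.05 FPKM in wild type. Vtn, vitronectin, a matrix protein that brain pericytes secrete, was at 43.0, 41.4 and 35.3 FPKM in knock-in and at 38.7, 41.1 and 38.7 FPKM in wild type. The log2 differences of Rgs5, Kcnj8 and Vtn were 0.02, 0.02 and 0.01, and each changed sign without at least 1 of the libraries.

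Smooth muscle genes did not move together. Acta2, smooth muscle actin, was at 9.80, 8.57 and 8.11 FPKM in knock-in and at 9.06, 9.18 and 9.16 FPKM in wild type. Tagln, transgelin, an actin-binding protein of the same cells, was at 6.57, 7.72 and 6.52 FPKM in knock-in and at 6.39, 6.84 and 6.56 FPKM in wild type. Of the 1988 exon bases of Tagln, 1241 lie opposite an annotated antisense RNA, and the strand setting of the counting is not given in the sources used here. Myl9, a regulatory light chain of smooth muscle myosin, was at 10.3, 17.8 and 14.5 FPKM in knock-in and at 10.0, 8.43 and 15.3 FPKM in wild type. High levels occurred in knock-in replicates 2 and 3 and in wild type replicate 3, so the genotypes overlapped, with a 2.12-fold spread over the 6 libraries. The coefficient of variation of Myl9 was 28.9%, higher than that of 95.6% of all tested genes, against 6.46% for Acta2 and 7.24% for Tagln. Its log2 difference of 0.32 (SE 0.27) was the highest of the 28, with a 95% interval of the fold of 0.792 to 1.97. That difference shrank to 0.15 when either knock-in replicate 2 or wild type replicate 2 was left out. It was 0.52 when knock-in replicate 1 was left out and 0.54 when wild type replicate 3 was.

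The upstream bases of Myl9 are shown because its level varied apart from that of the other smooth muscle genes. They are at chr2:156775214-156775419 on the plus strand of GRCm38.p6, from RefSeq, and stop before the first annotated exon base. Capitals mark a CArG box, the element to which serum response factor binds in many smooth muscle genes.
Myl9: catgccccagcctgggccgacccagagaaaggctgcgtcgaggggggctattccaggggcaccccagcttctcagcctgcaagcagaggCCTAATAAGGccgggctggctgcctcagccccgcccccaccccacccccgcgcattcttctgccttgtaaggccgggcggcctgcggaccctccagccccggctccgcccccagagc
The match starts 161 bases before the RefSeq start. The search required CC, a core of only A and T, and GG, with no mismatch. Such a match occurs in 1.47% of the 32851 windows. Among the 30 windows of the 23 members it was found in 2, that of Myl9 and that of 1 of the start sites of Igf2. The window of Acta2 held none, but forms with another base in the core were not searched, and Tagln had no window. The smooth muscle genes were thus not compared for this element. Myl9 lies on chromosome 2 at 156775420 to 156781658.

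Of 19 further genes of mural cells and platelet-derived growth factor signalling, 14 were tested, with 8 lower, 6 higher and 0 called. Pdgfb, the endothelial ligand of Pdgfrb, was at 9.83, 9.59 and 7.43 FPKM in knock-in and at 9.78, 9.21 and 8.98 FPKM in wild type. Cspg4, the NG2 proteoglycan of pericytes and oligodendrocyte precursors, was at 2.74, 2.19 and 2.08 FPKM in knock-in and at 2.52, 2.85 and 2.63 FPKM in wild type. The basement membrane that endothelium and pericytes share was lower in 11 of 11 tested genes, with a median log2 difference of -0.10 and 0 called. By library the median stood at 0.00, -0.12 and -0.18 from the wild-type mean in knock-in replicates 1 to 3, and at -0.04, 0.09 and -0.01 in wild type. Knock-in replicate 1 was thus within the wild-type range. Nid1, the linker protein nidogen 1, was at 3.37, 3.13 and 3.11 FPKM in knock-in and at 3.30, 3.89 and 3.47 FPKM in wild type.

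Matrix genes of leptomeningeal fibroblasts were at the lowest levels of the 32. Col1a1 and Col1a2 encode the chains of type I collagen, Col3a1 that of type III, and Dcn and Lum the proteoglycans decorin and lumican, which bind collagen fibrils. Col1a2, the 1 gene of the 5 that reached the mean of 1 FPKM, was at 1.28, 1.38 and 0.948 FPKM in knock-in and at 1.16, 1.24 and 1.40 FPKM in wild type, with a log2 difference of -0.05 (SE 0.09). Just below that mean, Col1a1 was at 0.925, 1.04 and 0.738 FPKM in knock-in and at 0.836, 1.03 and 0.894 FPKM in wild type. Dcn was at 0.901, 0.994 and 0.689 FPKM in knock-in and at 0.880, 0.744 and 0.938 FPKM in wild type. Each was lowest in knock-in replicate 3, and both Col1a1 and Dcn were highest in knock-in replicate 2. Col3a1 was at 0.724, 0.880 and 0.494 FPKM in knock-in and at 0.660, 0.582 and 0.731 FPKM in wild type. Lum was at 0.350, 0.454 and 0.171 FPKM in knock-in and at 0.430, 0.335 and 0.307 FPKM in wild type. All 5 were thus lowest in knock-in replicate 3, and 4 of the 5 were highest in knock-in replicate 2, so the spread within the knock-in group exceeded the difference between genotypes. At such levels few reads lie behind a value, and the number is unknown.

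The upstream bases of Col3a1 are shown as an example of a matrix gene that followed this order of libraries. They are at chr1:45311288-45311537 on the plus strand of GRCm38.p6, from RefSeq, and contain neither a CCAAT nor a CArG match, so no base is in capitals.
Col3a1: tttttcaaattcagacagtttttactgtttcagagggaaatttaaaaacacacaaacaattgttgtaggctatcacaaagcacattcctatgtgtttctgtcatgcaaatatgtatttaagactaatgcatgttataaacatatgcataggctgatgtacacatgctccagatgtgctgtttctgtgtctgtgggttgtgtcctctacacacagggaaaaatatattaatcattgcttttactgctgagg
Col1a2 had 1 CCAAT match, 109 bases before its RefSeq start, and no window of Col1a1, Dcn or Lum was used here.

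The secreted and transport genes of the meninges were more abundant, and several are also made by other cells. Igf2, the insulin-like growth factor of meninges and choroid plexus, lies on chromosome 7 at 142650766 to 142666816. Igf2 stood at 8.06, 9.48 and 7.76 FPKM in knock-in and at 8.41, 11.4 and 9.38 FPKM in wild type, with a log2 difference of -0.18 (SE 0.11). Wild type replicate 2 was highest, and without it the difference was -0.07. Of the 5723 exon bases of Igf2, 3596 are shared with an overlapping gene model on the same strand, Gm49394. Igfbp2, a secreted binding protein for insulin-like growth factors also made by choroid plexus and astrocytes, was at 7.39, 8.98 and 5.16 FPKM in knock-in and at 6.95, 10.3 and 6.59 FPKM in wild type. It too was highest in wild type replicate 2, and its log2 difference of -0.13 (SE 0.22) was 0.05 without that library and 0.06 without knock-in replicate 3. Ttr was highest in the same library, and the part of choroid plexus in the levels of Igf2 and Igfbp2 was not tested.

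Ptgds, the prostaglandin D synthase of leptomeninges and oligodendrocytes, lies on chromosome 2 at 25466709 to 25470046. It had the widest spread among tested members, at 49.2, 30.7 and 20.9 FPKM in knock-in and at 22.5, 27.2 and 33.6 FPKM in wild type. The mean was 33.6 ± 14.4 FPKM in knock-in and 27.8 ± 5.56 FPKM in wild type (SD, n = 3 each). Knock-in replicate 1 was the highest of all libraries and knock-in replicate 3 the lowest, and the log2 difference of 0.20 (SE 0.33) turned to -0.11 without replicate 1 and was 0.49 without replicate 3. The matrix genes were likewise lowest in replicate 3 but were not highest in replicate 1.

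Slc6a13, the GAT2 transporter of GABA and taurine in leptomeninges, was at 1.46, 1.62 and 1.17 FPKM in knock-in and at 1.77, 1.49 and 1.66 FPKM in wild type. Its log2 difference of -0.13 (SE 0.09) was -0.054 without knock-in replicate 3. Slc17a7, a gene of cortex, was at 29.9 FPKM in knock-in replicate 1, where Ptgds was highest. It was at 25.2 FPKM in knock-in replicate 2, where most matrix genes were highest. The wild-type libraries did not share this order. Slc17a7 was at 10.95 FPKM in wild type replicate 1, with Ptgds at 22.5 FPKM. In wild type replicate 3 it was at 2.73 FPKM, with Ptgds at 33.6 FPKM. The part of overlying tissue in these levels was not tested.

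Of 24 further fibroblast and leptomeningeal genes 10 were tested, with 7 lower, 3 higher and 0 called. At an unadjusted p under 0.05 in limma, 3 of the 10 passed, beside 4.27% of all tested genes. Col6a2 and Col6a1, chains of the microfibrillar type VI collagen, and Serping1, the C1 inhibitor, had the smallest p. Col6a2 was at 4.19, 4.28 and 4.24 FPKM in knock-in and at 4.83, 5.41 and 5.00 FPKM in wild type (log2 difference -0.21, SE 0.06, unadjusted p = 0.00992 and adjusted p = 0.997 in limma). Serping1 was at 2.17, 2.23 and 2.05 FPKM in knock-in and at 2.51, 2.49 and 2.72 FPKM in wild type. Col6a1 was at 31.6, 35.7 and 35.2 FPKM in knock-in and at 37.9, 37.0 and 40.9 FPKM in wild type. These 3 were the genes of the list with the smallest p. In all 3 the knock-in libraries lay below every wild-type library, as in 5 of the 23 genes of the list found in the table. The share was 6.58% over all tested genes, whereas the 23 include genes with a mean under 1 FPKM. In Col6a2, Serping1 and Col6a1 knock-in replicate 3 was not set apart from the other knock-in libraries as it was in the type I and III collagens. Over the list it was lowest of the 6 libraries for 16 of the 23 genes, and below every wild-type library for 18. The median over the 10 tested genes stood at -0.14, -0.07 and -0.20 from the wild-type mean in knock-in replicates 1 to 3. In wild type it was -0.02, -0.03 and 0.04.

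Many of the 32 genes were low in the same library, a pattern noticed after the values were seen. Knock-in replicate 3 held the lowest level of the 6 libraries for 22 of the 32 genes, where it did so for 32% of all tested genes. It was lowest for 9 of 9 meningeal, 9 of 16 endothelial and 4 of 7 mural genes. It lay below every wild-type library for 26 of the 32 genes, beside 41.3% of all tested genes. The 32 here include Dcn, Col1a1, Col3a1 and Lum, whose means were under 1 FPKM. The median departure from the wild-type mean over the 32 genes was 0.00, 0.04 and -0.15 in knock-in replicates 1 to 3, and -0.03, 0.01 and 0.01 in wild type. Over all tested genes it was -0.02, 0.01 and -0.04 in knock-in and between -0.01 and 0.01 in wild type. Rescaling each library by the median of ratios left 21 of the 32 genes lowest in knock-in replicate 3, beside 22.7% of all tested genes. Rescaling to FPKM without mitochondrial genes left 22, beside 29.8%. Among the exceptions, Rgs5 was highest of all libraries in knock-in replicate 3 at 29.3 FPKM, as was Slco1a4 at 11.2 FPKM, and Myl9 and Itm2a were above their wild-type means.

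**Figure D4:**
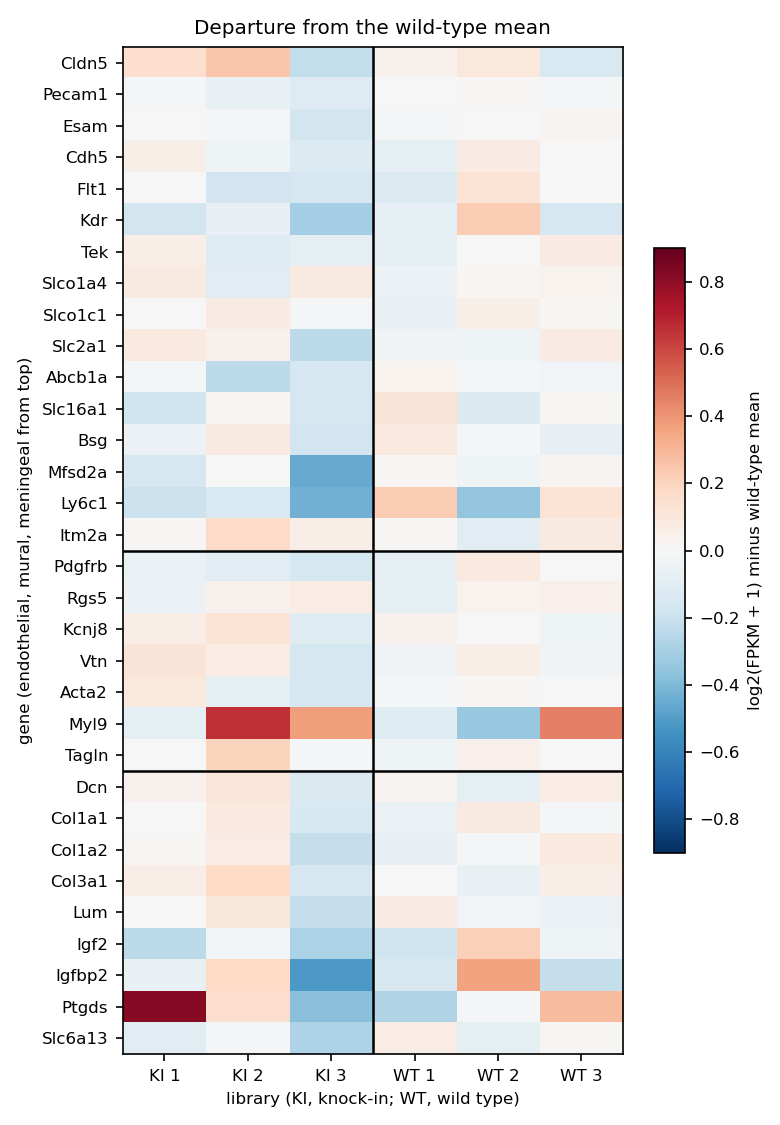
Departure of each gene in each library from its wild-type mean, in log2(FPKM + 1), with knock-in libraries left of the vertical line. Rows from the top are endothelial, mural and meningeal genes. The column of knock-in replicate 3 is below the wild-type mean for most rows, with Mfsd2a at -0.46 and Igfbp2 at -0.51, whereas Myl9 is above it at 0.38.

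Summed over members, endothelial genes gave 375, 397 and 336 FPKM in knock-in and 392, 374 and 374 FPKM in wild type. Bsg, also made by neurons and glia, was the largest term of that sum. Mural genes gave 106, 114 and 103 FPKM in knock-in and 100.2, 105 and 109 FPKM in wild type. Meningeal genes gave 70.3, 55.5 and 38.0 FPKM in knock-in and 43.6, 54.3 and 55.5 FPKM in wild type, a sum in which Ptgds was the largest term. The endothelial sum was lowest in knock-in replicate 3, and the meningeal sum held both extremes in the knock-in group.

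Markers of other cells shared this feature in part. In knock-in replicate 3 the median departure of tested blood genes, such as the globin gene Hba-a2, was -0.82, against -0.06 and 0.10 in the other knock-in libraries and -0.18 to 0.13 in wild type. Hba-a2 itself was at 371, 415 and 218 FPKM in knock-in and at 427, 402 and 338 FPKM in wild type. In the same library the median was -0.15 for astrocyte genes (10 genes), -0.17 for microglia genes (8 genes) and 0.14 for striatal projection neuron genes (12 genes). The microglia genes were split. Of the 8 genes 6 were lowest of all libraries in knock-in replicate 3. The other 2, Cx3cr1 and P2ry12, were highest there, at 1.01 and 0.76 from the wild-type mean. Cx3cr1 was also high in knock-in replicate 1, at 0.99. The summed level of the 12 projection neuron genes was 2852, 3011 and 3161 FPKM in knock-in and 2988, 2942 and 2862 FPKM in wild type. Genes of myelinating oligodendrocytes and of ependyma, the ciliated lining of the ventricles, were low in other knock-in libraries as well. The oligodendrocyte medians were -0.17, -0.09 and -0.45 in knock-in replicates 1 to 3 and -0.11 to 0.07 in wild type, with 9 of 10 genes lower in knock-in, 4 at an unadjusted p under 0.05 and 0 called. The ependymal medians were -0.55, -0.12 and -0.40 in knock-in and -0.06 to 0.06 in wild type, with 7 of 7 tested genes lower, 4 at an unadjusted p under 0.05 and 0 called. Beside these counts, 56.4% of all tested genes were lower and 4.27% had an unadjusted p under 0.05 in limma. Lower levels in knock-in replicate 3 were thus not limited to vessels and meninges. Perivascular macrophages, which live beside the same vessels, were represented by Cd163, at 1.23, 1.06 and 1.55 FPKM in knock-in and 1.15, 1.42 and 1.52 FPKM in wild type, while the other 6 listed genes did not reach the mean of 1 FPKM. The part of these cell types, and of the mitochondrial share, in the levels of the 32 genes was not tested.

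**Figure D5:**
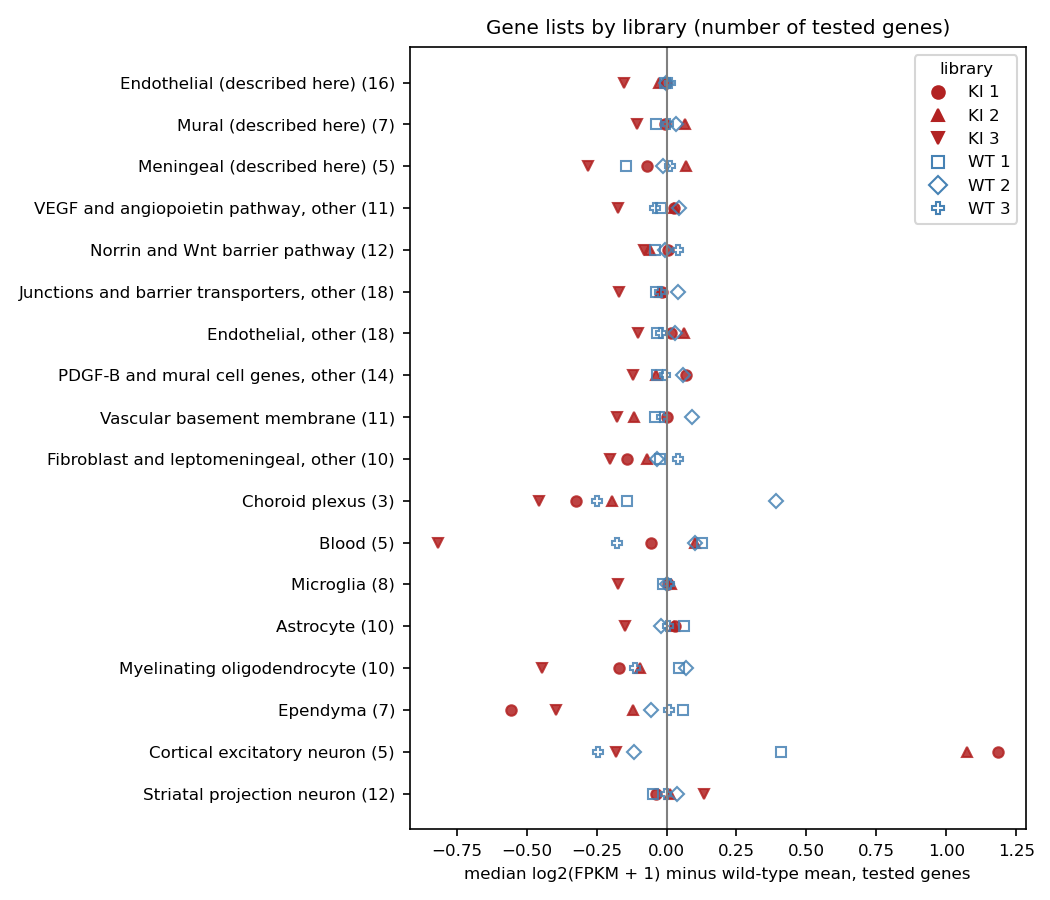
Median departure of the tested genes of each list from the wild-type mean, in log2(FPKM + 1), 1 marker per library, with the number of tested genes in brackets. Filled markers are knock-in and open markers wild-type libraries. Knock-in replicate 3 lies left of the other libraries in the lists of vessels, meninges, blood, microglia, astrocytes and myelinating oligodendrocytes and right of them for striatal projection neurons, and wild type replicate 2 lies far right for choroid plexus.

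The classes differed in how many of their genes reached a mean of 1 FPKM. Levels of different genes do not measure how much of each cell class was present, and several of these genes are also made by other cells. All 16 endothelial and all 7 mural genes reached a mean of 1 FPKM in striatum, with 4 of them, Bsg, Vtn, Cldn5 and Slc2a1, among the highest levels of the 32. Of the 9 meningeal genes 5 did so, and 4 of those 5, Igf2, Igfbp2, Ptgds and Slc6a13, are not matrix genes.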

How the data were processed

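Per the labels' protocols, tissue was kept in RNAlater before miRNeasy extraction and TruSeq library preparation. Per the file headers, the values the authors deposited are FPKM. The submitters' processing notes name StringTie, HISAT2, SAMtools and FastQC without versions. Build and annotation: not given in the sources used here. No value in the table is 0, and FPKM keep no read counts. Low values of genes with 1 transcript lay within 0.1 of whole-read steps for 39.1% to 43.6% at the best step, so reads were not recovered and depth is unknown. Each column was matched to its sample through the code that the labels give.

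Values were analysed as log2(FPKM + 1), which understates changes of low genes, with limma 3.58.1 in R 4.3.3 (trended prior, robust), after a filter at a mean of 1 FPKM over the 6 libraries. The script was tested on simulated data. Alternatives were a pseudocount of 0.1 FPKM, no filter, a minimum of 5 FPKM, quantile and median-of-ratios scaling, no robust estimation, a replicate block, and leaving out each library. Members and lists were chosen with earlier results of these data known. All 32 members are named, and from other lists up to 3 genes with the smallest p or the highest mean; Ttr, Slc17a7, Xist, Ly6c2 and Abcb1b were otherwise chosen after their values were seen. Positions and overlaps are from GENCODE M21 (GRCm38), matched by gene identifier, and promoter sequences from RefSeq on GRCm38.p6, matched by symbol for 23 of the 32 members.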

Additional observations from a re-analysis of the deposited data

How the results depend on the processing

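The number of vascular and meningeal genes called was 0 under every alternative run, with a smallest adjusted p of 0.795 in limma. At an unadjusted p under 0.05, 1 member passed in each of 4 alternatives, namely Abcb1a without knock-in replicate 1, Mfsd2a without knock-in replicate 2, Ly6c1 without wild type replicate 2 and Igf2 with the replicate block. Of 357 values of members under alternatives 333 kept their direction and 24 changed sign, all of them leaving out a library except Vtn under quantile normalization, at -0.0027. Leaving out each library in turn gave ranges of -0.036 to 0.20 for Cldn5, -0.083 to 0.0048 for Cdh5, -0.0087 to 0.081 for Slco1a4, -0.013 to 0.047 for Slco1c1, -0.10 to 0.062 for Slc2a1, -0.11 to 0.016 for Bsg, -0.023 to 0.052 for Rgs5 and -0.023 to 0.091 for Kcnj8. The ranges were -0.046 to 0.093 for Vtn, -0.12 to 0.0049 for Acta2, -0.0098 to 0.10 for Tagln, -0.10 to 0.040 for Col1a2, -0.29 to 0.057 for Igfbp2 and -0.11 to 0.49 for Ptgds. The medians ranged from -0.09 to -0.02 for endothelial, -0.020 to 0.091 for mural and -0.19 to 0.040 for meningeal genes, whose median with no filter, over all 9, was -0.04. The count over all genes, 3, ranged from 3 to 14 when a library was left out (11, 14 and 6 without knock-in replicates 1, 2 and 3, and 8 without wild type replicate 2). In the other lists 0 genes were called, except Cx3cr1 without knock-in replicate 2, so that the microglia count ranged from 0 to 1. Cx3cr1 was then higher in knock-in (log2 difference 0.998, adjusted p = 0.00434 in limma). The causes were not tested.

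The replicate numbers showed no clear pairing of the samples. Same-numbered libraries deviated from their group means with correlations over genes of -0.01, -0.07 and 0.19, and differently numbered libraries with correlations of -0.18 to 0.21. With 3 libraries per genotype these values cannot exclude a pairing. With the replicate block 2 of all genes and 0 members were called. The counts of genes lowest in knock-in replicate 3 under other scalings were chosen after seeing the data. With 3 libraries per genotype and unknown depth, the intervals printed above set what could be seen, and genes with a mean under 1 FPKM were tested only with no filter, where 0 of 32 members were called.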
